A study of Mus musculus with 5 samples.

Results

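The comparison described here is between the 2 control libraries of one mouse embryonic stem cell (mESC) line: V6.5 cells that carried a non-targeting control shRNA (NTC) and V6.5 cells that were not treated. The 2 libraries were deposited in separate tables, which were joined by gene symbol, and a gene was a member of the comparison if its level was at least 1 FPKM (fragments per unit of transcript length and of sequencing depth) in either library. Of 24421 genes, 12048 were members. Of these, 10773 reached 1 FPKM in both libraries, 473 in NTC cells alone and 802 in untreated cells alone. At the edge of the rule, Lhx6 was just inside, with 0.720 FPKM in untreated and 1.00 FPKM in NTC cells, and Gzmm just outside, with 0.9998 and 0.415 FPKM.

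The study asked what the glycine cleavage enzyme Gldc does in pluripotent cells. One table holds mouse embryonic fibroblasts (MEFs), induced pluripotent stem cells (iPSCs) and untreated V6.5 cells. The other holds V6.5 cells with the NTC and V6.5 cells with an shRNA against Gldc (shGldc). Each of the 5 groups is 1 library of total RNA, so no difference below has a replicate check, and no p-value is given. The labels describe mESCs and iPSCs grown without feeder cells on gelatin, in serum replacement with a little serum and leukaemia inhibitory factor (LIF). The methods describe culture on feeder cells in serum as well, and do not say which the sequenced V6.5 cells had. The NTC line expressed its shRNA stably from a lentiviral vector. V6.5 is an embryonic stem cell line derived from a hybrid mouse blastocyst. The shRNA vector and the separately made table both set the 2 controls apart, so the part of each in a difference cannot be told apart.

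As background, mESCs keep themselves undifferentiated through a core of transcription factors (Oct4, Sox2, Nanog) and are held near the naive state of the early epiblast by LIF, BMP and Wnt signals. Wnt signalling stabilises β-catenin, which acts through TCF and LEF factors on targets such as Axin2, Sp5 and T, while BMP signals induce the Id genes. Cultures of these cells are mixed and fluctuate: small fractions enter a state resembling the 2-cell embryo, others move towards the primed epiblast, and genes such as Dppa3 switch on and off between cells. A non-targeting control uses the same vector and small RNA pathway as a knockdown but has no intended target.

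The core of the pluripotency program stood at nearly the same level in both controls, whereas groups of genes outside it differed by large factors. Pou5f1 (Oct4) was at 1055 FPKM in untreated and 1215 FPKM in NTC cells, Sox2 at 196.7 and 223.0 FPKM, Nanog at 263.2 and 249.5 FPKM, and Zfp42 at 149.5 and 150.3 FPKM. Fibroblast and contractile genes and several hypoxia and glycolysis genes were lower in NTC cells, and so were genes of the 2-cell-like state, although all the called 2-cell-like genes and 7 of the 10 called genes of the fibroblast list passed the 1 FPKM filter through the untreated library alone. A set of Wnt targets, the X-linked Xlr3, Xlr4 and Xlr5 genes, Id1, Id3 and Myc were higher. All these Xlr genes, and Sp5 and T among the Wnt targets, passed that filter through the NTC library alone, which fixes their direction.

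Over all members, differences were taken as log2(FPKM + 0.1) in NTC minus untreated cells, and a gene was called at a difference of 1 or more in size, that is 2-fold on that scale. By this rule 601 genes were higher in NTC cells, which is 4.99% of the members, and 1235 were lower, which is 10.3%. A change of at least 8-fold was seen in 73 genes upwards and 145 downwards. The median difference was -0.06, its robust SD, the median absolute deviation scaled to match a normal SD, was 0.59, and 66.1% of the members lay within 1.5-fold. The same cut between iPSCs and untreated V6.5 cells called 17.5% of 12323 genes (10.1% higher and 7.44% lower), with a robust SD of 0.65, and between shGldc and NTC cells it called 16.7% of 11969 genes (8.97% higher and 7.68% lower), with a robust SD of 0.53. Those 2 comparisons each share a library with this one. The 2 controls of the line thus differed at 15.2% of their genes, a share close to both.

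**Figure D1:**
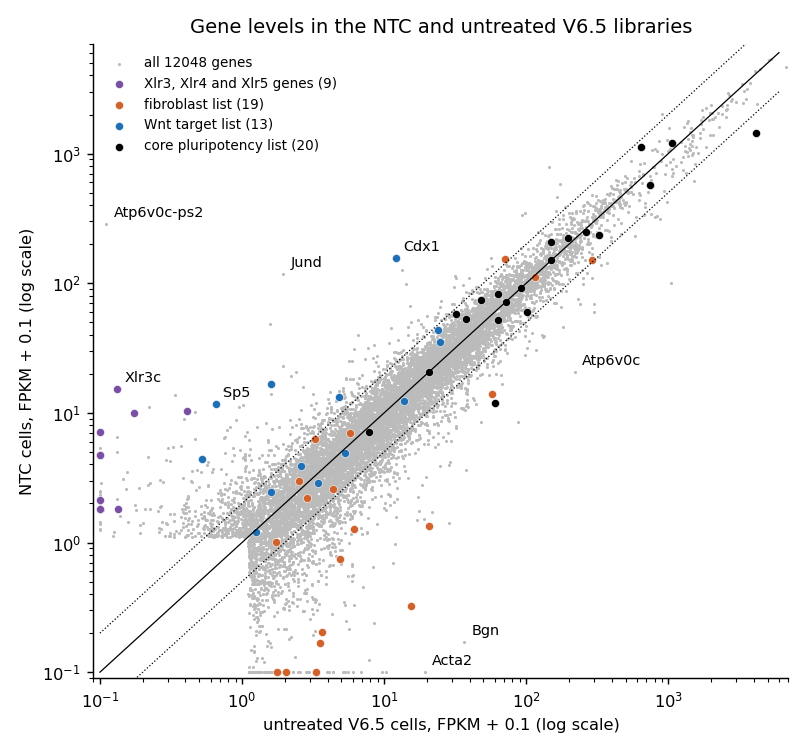
Levels of the 12048 member genes (FPKM + 0.1, log axes) in untreated V6.5 cells (x) and NTC cells (y), with the solid line at equality and dotted lines at 2-fold. Of the 20 core pluripotency genes 18 lie within the 2-fold lines, the 9 Xlr3, Xlr4 and Xlr5 genes lie far above it, and most fibroblast genes lie below it.

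Differences were concentrated among weakly expressed genes. Among the 4334 members with a mean level under 5 FPKM, 8.72% were higher and 19.4% lower in NTC cells, against 1.45% and 3.13% of those above 100 FPKM. The NTC library listed 9086 genes at 0 and the untreated library 7324. From the spacing of the lowest values, which are near whole multiples of 1 fragment, the untreated library held about 24600000 fragments, with 16400000 as the next best reading, and the NTC library 14500000 or 29000000, so the depths were not settled. The 5 most abundant genes were the same in both libraries (Ftl1, Eef1a1, Rplp1, Rps2 and Rpl8), with Ftl1, the ferritin light chain, at 8276 FPKM in untreated and 5490 FPKM in NTC cells. All 8 markers of mESCs were at 148.7 FPKM or more in untreated and 150.3 FPKM or more in NTC cells, which fits the labelled cell type of both.

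A group that was higher as a whole in NTC cells was that of the Xlr3, Xlr4 and Xlr5 genes, X-linked relatives of a lymphocyte-regulated family whose Xlr3b, Xlr4b and Xlr4c members are known to be imprinted in the brain. All 9 were at 0.309 FPKM or less in untreated V6.5 cells, 5 of them listed at 0, and all 9 were between 1.71 and 15.1 FPKM in NTC cells. Xlr3c was at 0.0320 FPKM in untreated and 15.1 FPKM in NTC cells, Xlr3b at 0.0745 and 9.81 FPKM, and Xlr3a at 0.309 and 10.2 FPKM. Xlr5a was listed at 0 in untreated cells and stood at 7.05 FPKM in NTC cells. All 9 were members through the NTC library alone, so their NTC levels had to exceed 1 FPKM, and the order of the 2 libraries over these genes is a description only.

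The other libraries showed that the untreated V6.5 library was the one that stood apart from the pluripotent cells. The 9 genes ranged from 1.21 to 11.9 FPKM in iPSCs and from 2.66 to 12.4 FPKM in shGldc cells, and MEFs held at most 0.4997 FPKM. Summed over the 9, the level was 0.450 FPKM in untreated V6.5 cells, 41.1 in iPSCs, 56.9 in NTC and 64.2 in shGldc cells. The copies share between 44.8% and 90.7% of their 50-nt stretches with another gene, so how fragments were divided among the 9 is uncertain, but their sum is less exposed to that.

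Neighbouring genes differed from each other. The 9 genes lie on the X chromosome of GRCm38 (mm10) between 73074345 and 73292976. Within the same interval F8a, a single-exon gene, was at 3.11 FPKM in untreated and 3.19 FPKM in NTC cells, whereas the predicted gene Gm14685, which shares 98.2% of its 50-nt stretches with a copy, was listed at 0 and at 2.39 FPKM. DXBay18, the gene that shares most of these stretches, was listed at 0 in untreated and stood at 0.0170 FPKM in NTC cells. How fragments were divided between this pair is uncertain. On one side Pnma5, a paraneoplastic antigen relative, was at 0.645 FPKM in untreated and 14.9 FPKM in NTC cells, and at 8.28 FPKM in iPSCs. Beyond the cluster on the other side Zfp275 was at 1.53 and 0.462 FPKM, and Haus7, a subunit of the augmin complex, at 21.3 and 26.6 FPKM. Bgn lies further along and went the opposite way, as described below.

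**Figure D2:**
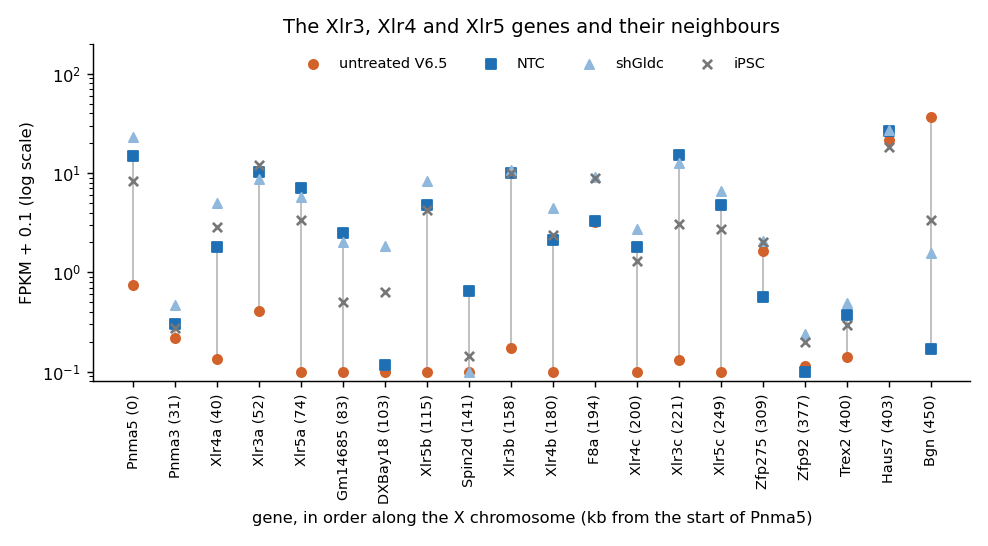
FPKM + 0.1 (log axis) of 20 genes in order along the X chromosome, with the distance in kb from the start of Pnma5 in parentheses and a grey line joining untreated V6.5 (circle) to NTC (square). The Xlr3, Xlr4 and Xlr5 genes and Pnma5 are high in NTC, shGldc and iPSC libraries and near 0 in untreated V6.5 cells, while F8a and Haus7 are close in both.

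The promoters of Xlr3b and Xlr4b are shown because these copies moved together from almost no signal, and because both carry the same box close to the start. Sequences run from 250 bases before to 50 bases after the start of the gene in RefSeq (GRCm38.p6, plus strand), at chrX:73191929-73192228 for Xlr3b and chrX:73214083-73214382 for Xlr4b, with CCAAT on either strand in capitals.
Xlr3b: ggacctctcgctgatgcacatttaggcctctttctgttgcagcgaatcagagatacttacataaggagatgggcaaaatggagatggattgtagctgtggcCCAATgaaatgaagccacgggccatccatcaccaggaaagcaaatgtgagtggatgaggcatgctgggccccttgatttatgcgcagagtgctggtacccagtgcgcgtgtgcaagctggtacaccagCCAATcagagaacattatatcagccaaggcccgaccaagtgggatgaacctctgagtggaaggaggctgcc
Xlr4b: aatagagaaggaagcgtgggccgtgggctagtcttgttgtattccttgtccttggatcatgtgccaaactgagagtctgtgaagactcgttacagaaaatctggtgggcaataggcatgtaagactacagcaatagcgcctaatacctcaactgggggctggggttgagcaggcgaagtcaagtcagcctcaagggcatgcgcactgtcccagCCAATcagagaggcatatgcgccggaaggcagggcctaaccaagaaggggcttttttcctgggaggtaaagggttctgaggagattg
A CCAAT was present on either strand in a promoter of 8 of the 9 Xlr genes and in 37.4% of all 32851 promoters of this length. The former is counted per gene and the latter per promoter, so the shares are not like measures. The copies arose by duplication, so their promoters are not independent of each other, and a match is a description only.

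Several Wnt targets were higher in NTC cells. Of 18 listed genes 13 were members, 5 were called higher (38.5%, against 4.99% of all members) and 0 lower (against 10.3%), and their median difference was 0.61 against -0.06 for all members. Sp5 and T passed the filter through the NTC library alone, which fixes their direction, and with 1 FPKM required in both libraries 3 were called. Axin2, which feeds back on β-catenin destruction, was at 1.49 FPKM in untreated and 16.6 FPKM in NTC cells. Sp5, a zinc finger factor induced directly by β-catenin, was at 0.554 and 11.6 FPKM. The homeobox gene Cdx1 was at 12.1 and 156.8 FPKM, a 12.9-fold difference. T (Brachyury), the primitive streak factor, was at 0.425 and 4.33 FPKM, and Notum, a secreted Wnt inhibitor, was at 4.68 and 13.2 FPKM.

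Not every listed target was higher. Lef1 was at 1.16 FPKM in untreated and 1.11 FPKM in NTC cells, the Wnt receptor Fzd7 at 13.8 and 12.2 FPKM, and Nkd2 at 3.32 and 2.80 FPKM. Cdx2, a relative of Cdx1 outside that list, was at 0.274 and 5.41 FPKM. In shGldc cells the same targets were higher still, with Sp5 at 77.8, Axin2 at 55.4 and Cdx1 at 328.1 FPKM, and in iPSCs they lay nearer untreated cells, at 1.28, 4.69 and 29.8 FPKM. Of 10 members that mark the streak and mesoderm, 4 were higher and 2 lower, against 4.99% and 10.3% of all members. Only 5 of the 10 reached 1 FPKM in both libraries, and over these the median was -0.05, against 0.24 over all 10. Cdx2, which is in this list, passed the filter through the NTC library alone, which fixes its direction. Mixl1 was at 0.234 FPKM in untreated and 1.36 FPKM in NTC cells, whereas Hand1 was at 3.01 and 0.382 FPKM, each a member through 1 library alone, which fixes its direction.

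Sp5 is shown as the target with the largest ratio. Its promoter is at chr2:70474673-70474972 (GRCm38.p6, plus strand, RefSeq). The TCF and LEF core letters CTTTGAT or CTTTGAA, searched on both strands, are in capitals.
Sp5: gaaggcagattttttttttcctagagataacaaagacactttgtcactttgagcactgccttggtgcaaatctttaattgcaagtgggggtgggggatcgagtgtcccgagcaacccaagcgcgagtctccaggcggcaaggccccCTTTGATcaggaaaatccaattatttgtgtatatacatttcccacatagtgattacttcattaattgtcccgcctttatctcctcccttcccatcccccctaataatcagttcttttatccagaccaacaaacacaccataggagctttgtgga
Either form was found in 8.65% of all promoters. Among the 11 Wnt targets with a promoter in the table, counted per gene and not per promoter, 3 held one. These were Dkk1, Sp5 and T, of which Dkk1 was under 1 FPKM in both libraries.

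Genes downstream of BMP moved in both directions. Of 20 listed genes 14 were members, 5 were higher (35.7%, against 4.99% of all members) and 4 lower (28.6%, against 10.3%). Id1 was at 15.2 FPKM in untreated and 67.0 FPKM in NTC cells, and Id3 at 14.1 and 97.7 FPKM, while Id2 was lower, at 5.77 and 1.05 FPKM. The Id proteins block basic helix-loop-helix factors and are the usual readout of BMP in mESCs. Bmp4, the ligand, was at 10.7 FPKM in untreated and 34.4 FPKM in NTC cells, and Bmp7 at 8.35 and 3.91 FPKM. The inhibitory Smads were split, with Smad7 at 11.7 and 26.3 FPKM and Smad6 at 11.04 and 3.73 FPKM. Among feedback genes of FGF and ERK signalling, of which 4 of 17 were higher (23.5%, against 4.99% of all members) and 2 lower (11.8%, near the 10.3% of all members), Spry4 was at 11.03 FPKM in untreated and 45.4 FPKM in NTC cells and Dusp4 at 19.8 and 8.002 FPKM.

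Myc, the growth factor-responsive transcription factor, was at 2.11 FPKM in untreated and 19.1 FPKM in NTC cells, a 9.06-fold difference. It was at 8.30 FPKM in shGldc cells and 4.61 FPKM in iPSCs. Its relative Mycl was at 5.95 and 18.2 FPKM. The 30 ribosome biogenesis genes, many of them known Myc targets, had a median difference of 0.30 with 0 called in either direction, against 4.99% and 10.3% of all members. Of the 79 cytosolic ribosomal protein genes, 0 were called higher and 4 lower (Rpl36a, Rpl17, Rpl35a and Rpl23a), with a median of -0.23. These 4 are 5.06% of the list, below the share over all members, and 1 was left when genes sharing over 20% of their 50-nt stretches were left out.

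**Figure D3:**
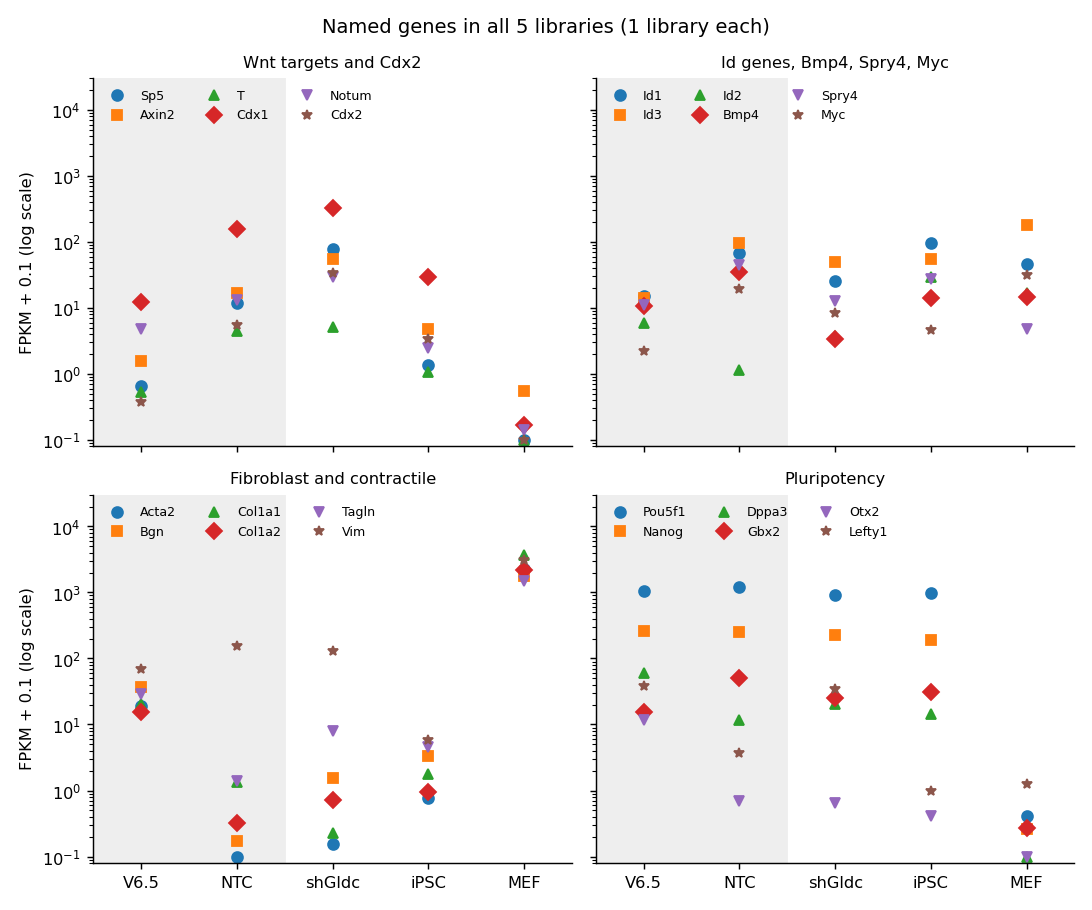
FPKM + 0.1 (log axis) of 24 named genes in the 5 libraries, 1 point per library, with the compared pair shaded. Pou5f1 and Nanog are level across the pluripotent libraries, the Wnt targets are higher in NTC than in V6.5 cells, and Acta2, Bgn, Col1a1, Col1a2 and Tagln are lower in NTC cells while Vim is higher.

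Among pluripotency genes, most calls lay outside the core list. Of the 20 core genes 0 were higher and 2 (10%) lower, the latter close to the 10.3% of all members, and their median difference was -0.00. The lower pair were Dppa3 (Stella), a maternal factor that protects methylation in the zygote, at 60.6 FPKM in untreated and 11.7 FPKM in NTC cells, and Dppa5a, at 4146 and 1440 FPKM. For Dppa5a, 38.6% of the 50-nt stretches also occur elsewhere in the annotation. Of the 18 naive genes 5 were higher (27.8%, against 4.99% of all members) and 1, again Dppa3, was lower (5.56%, against 10.3%), with a median of 0.43. Gbx2, a STAT3 target, was at 15.4 FPKM in untreated and 50.6 FPKM in NTC cells, Tbx3 at 19.9 and 56.1 FPKM, Klf5 at 35.8 and 96.0 FPKM, Tfcp2l1 at 16.9 and 37.5 FPKM, and Klf2 at 186.7 and 386.6 FPKM.

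Genes of the formative and primed epiblast were divided, with 3 of 16 members higher and 3 lower, 18.8% each against 4.99% and 10.3% of all members. Otx2, which drives exit from the naive state, was at 11.5 FPKM in untreated and 0.592 FPKM in NTC cells. It was also low in iPSCs, at 0.304 FPKM, and in shGldc cells, at 0.549 FPKM. Otx2 passed the filter through the untreated library alone, which fixes its direction between the controls. With 1 FPKM required in both libraries, 2 genes of the list were lower. Tcf15 was at 231.4 and 75.9 FPKM and Fgf15 at 7.29 and 2.50 FPKM. On the higher side, the de novo methyltransferase Dnmt3b was at 24.5 and 65.01 FPKM, and its cofactor Dnmt3l at 57.1 and 135.1 FPKM, whereas Dnmt3a was at 23.2 and 12.2 FPKM. Lefty1, a Nodal inhibitor and target, was at 37.8 FPKM in untreated and 3.54 FPKM in NTC cells, but at 34.3 FPKM in shGldc cells and 0.888 FPKM in iPSCs.

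The 2-cell-like genes had a list median of -2.41, and 11 of their 13 members were called lower (84.6%, against 10.3% of all members) and 0 higher. All 11 passed the filter through the untreated library alone, which fixes their direction, so the count and the median are descriptions only. They belong mostly to the Zscan4 and Usp17l families, which are active in the 2-cell embryo and in rare mESCs. Zscan4f was at 4.89 FPKM in untreated and 0.589 FPKM in NTC cells, and Tcstv1 at 1.94 and 0.115 FPKM. Because the copies share most of their sequence, sums are given: Zscan4a, Zscan4b, Zscan4c, Zscan4d and Zscan4f added up to 15.9 FPKM in untreated V6.5, 2.73 in NTC, 44.7 in shGldc and 5.32 in iPSC libraries. Usp17la to Usp17le added up to 9.90, 1.27, 14.8 and 4.07 FPKM. The order shGldc, untreated, iPSC, NTC was the same for both families. All called members were low in level: with 1 FPKM required in both libraries 2 members were left, with a median of -0.27, and 0 were called, and with genes sharing over 20% of their stretches left out 2 were called lower.

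**Figure D4:**
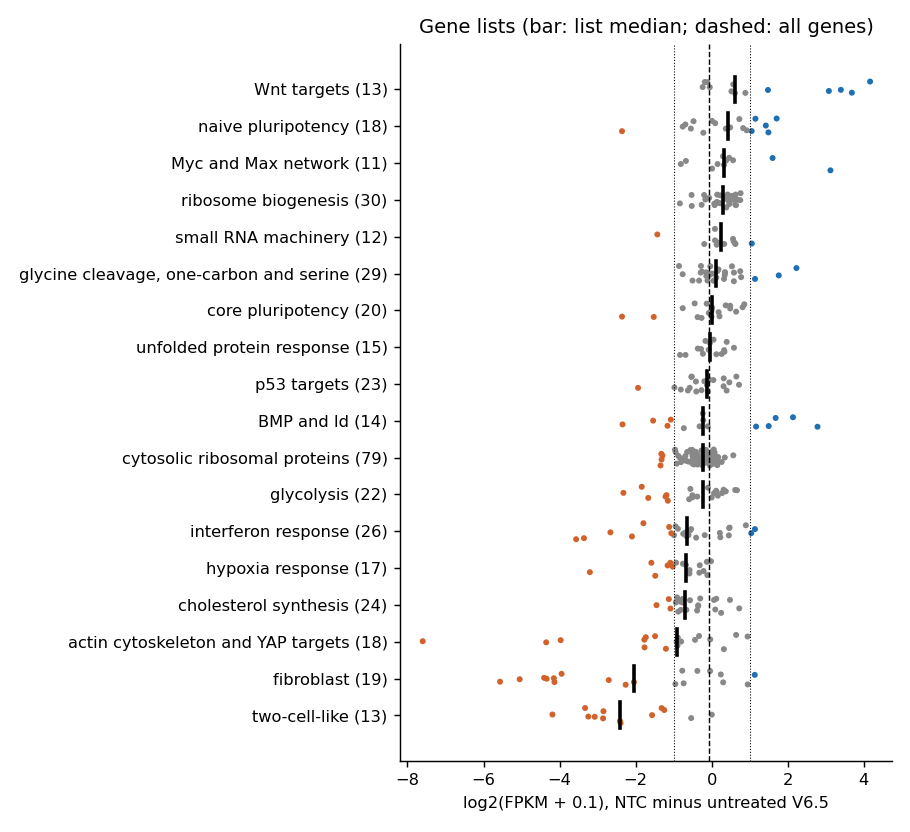
Difference in log2(FPKM + 0.1), NTC minus untreated V6.5, for each member of 18 gene lists (number of members in parentheses), with a bar at the list median, a dashed line at the median of all members and dotted lines at 2-fold. Of the 18 lists drawn, the Wnt targets hold the highest single value and the fibroblast, actin and 2-cell-like lists have the lowest medians.

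Genes of fibroblasts and their matrix were lower in NTC cells. Of the 23 fibroblast genes 19 were members, 10 were lower (52.6%, against 10.3% of all members) and 1 was higher (5.26%, near the 4.99% of all members), with a median of -2.05. Of the 19, 11 reached 1 FPKM in both libraries, and over these the median was -0.38 and 3 were lower, against 6.14% of all genes at that level in both libraries. Col1a1 and Col1a2, the chains of type I collagen, were at 20.5 and 15.3 FPKM in untreated cells and at 1.24 and 0.225 FPKM in NTC cells. Bgn, the matrix proteoglycan biglycan, was at 36.5 FPKM in untreated and 0.0702 FPKM in NTC cells. Acta2, smooth muscle actin, was at 19.3 FPKM in untreated cells and listed at 0 in NTC cells, and Tagln (transgelin) was at 28.7 and 1.31 FPKM. Thbs1, which encodes a matrix glycoprotein, was at 8.41 and 0.140 FPKM, and the tenascin gene Tnc was at 5.21 FPKM in untreated cells and listed at 0 in NTC cells. Vim, which encodes vimentin, was the 1 called higher, at 70.2 FPKM in untreated and 153.9 FPKM in NTC cells.

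These levels were small beside those of the MEF library. In untreated V6.5 cells Bgn stood at 2.05% of its MEF level, Col1a1 at 0.559%, Acta2 at 0.837% and Thbs1 at 1.43%. To follow this over more genes, 189 genes were taken that had at least 10 FPKM in MEFs and at least 50-fold more in MEFs than in iPSCs, a choice that used neither V6.5 library but was made after the pattern had been seen. Of these, 159 were higher in untreated than in NTC cells, 26 were higher in NTC cells and 4 were equal. Their median level was 1.65% of the MEF level in untreated cells, against 0.0962% with the NTC and 0.156% with shGldc, and 5 were listed at 0 in untreated against 75 in NTC cells. Over all genes, 7324 were listed at 0 in untreated and 9086 in NTC cells. Members with a mean under 5 FPKM also leaned this way, with 19.4% called lower and 8.72% higher. As members of the comparison 95 of the 189 passed, 62 through the untreated library alone and 5 through the NTC library alone, which fixes their direction. Of the 28 that reached 1 FPKM in both libraries, 14 were lower and 2 higher, with a median of -1.002, while of all 10773 genes at that level in both libraries 6.14% were lower and 3.02% higher. Lower genes numbered 1160 without the genes high in MEFs.

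Of 9 fibroblast markers, 7 were at 1 FPKM or more in untreated cells, where the list ranged from 0.380 to 20.5 FPKM, and 2 were in NTC cells, where it ranged from 0 to 6.95 FPKM and 5 were listed at 0. Thy1, also a surface marker of other cells, went the other way, at 5.63 FPKM in untreated and 6.95 FPKM in NTC cells. Whether RNA from other cells had a part in this was not tested. Mmp3, a stromal metalloproteinase, was at 5.97 FPKM in untreated V6.5 cells and 2.13 FPKM in MEFs, and was listed at 0 in NTC cells. The chemokine Ccl2 was at 10.2 FPKM, 18.5% of its MEF level, and was listed at 0 in the other 3 pluripotent libraries. In bulk RNA, fewer cells of a type and less RNA per cell cannot be told apart.

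**Figure D5:**
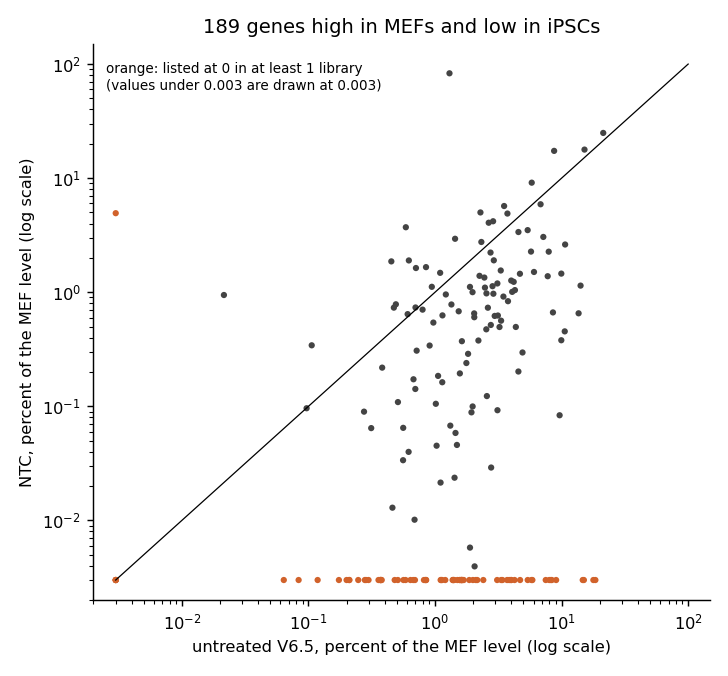
Levels of 189 genes chosen as high in MEFs and low in iPSCs, as percent of their MEF level in untreated V6.5 cells (x) and NTC cells (y) on log axes, with a line at equality. Of the 189 genes, 159 lie below the line, and the orange points along the lower edge are mostly the 75 genes listed at 0 in NTC cells.

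In the list of actin cytoskeleton and YAP targets, which holds Acta2 and Tagln, 8 of 18 members were lower (44.4%, against 10.3% of all members) and 0 higher, with a median of -0.91, and 5 were lower without the genes high in MEFs. The YAP targets Ctgf and Cyr61 were at 31.5 and 37.4 FPKM in untreated cells and at 9.15 and 11.2 FPKM in NTC cells, and in iPSCs, where the collagen genes were low, they were at 33.3 and 70.7 FPKM. Tagln2 was at 251.9 and 109.2 FPKM. Actb, the cytoplasmic actin, was higher in NTC cells, at 1013 and 1578 FPKM, without passing 2-fold.

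Among metabolic lists, 6 of 17 hypoxia response members were called lower (35.3%, against 10.3% of all members) and 0 higher, with a median of -0.68. Adm (adrenomedullin) was at 3.24 FPKM in untreated and 0.262 FPKM in NTC cells, Bnip3 at 23.3 and 8.24 FPKM, and Vegfa at 9.68 and 4.70 FPKM. Adm passed the filter through the untreated library alone and is among the genes high in MEFs. Without the genes high in MEFs 5 were lower, and 5 with 1 FPKM required in both libraries. Of the 22 glycolysis genes 6 were lower (27.3%, against 10.3% of all members) and 0 higher, with a median of -0.24. Ldhb was at 298.6 FPKM in untreated and 59.6 FPKM in NTC cells, and Hk1 at 58.2 and 25.5 FPKM, whereas Ldha had the highest difference of the list, 0.66. Gapdh was at 101.1 and 31.7 FPKM, but 24.7% of its 50-nt stretches are found in further genes. Of the 24 cholesterol synthesis genes 3 were lower (Fdps, Cyp51 and Insig1), which at 12.5% is near the share over all members, and the median was -0.71. Insig1, a sterol-responsive regulator, was at 38.4 and 14.0 FPKM.

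The glycine and one-carbon genes, which the study was about, were largely level between the controls. Of 29 members 3 were higher (10.3%, against 4.99% of all members) and 0 lower, with a median of 0.12. Gldc, the decarboxylase of the glycine cleavage system, was at 59.7 FPKM in untreated and 74.7 FPKM in NTC cells, and at 2.07 FPKM in the shGldc cells. The other cleavage system genes Gcsh and Amt were at 136.8 and 81.9 FPKM in untreated cells and at 204.7 and 75.7 FPKM in NTC cells. Tdh, threonine dehydrogenase, which feeds glycine and acetyl-CoA in mESCs, was the exception among abundant genes, at 172.0 FPKM in untreated and 583.3 FPKM in NTC cells, and it was at 188.1 FPKM in shGldc cells and 138.0 FPKM in iPSCs. Bhmt, a methyltransferase that uses betaine, was also called higher, at 0.197 and 1.29 FPKM. It passed the filter through the NTC library alone, which fixes its direction.

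Genes that the study followed for senescence and detoxification were under 2-fold apart. Cdkn1a, which encodes p21, was at 46.6 FPKM in untreated and 72.9 FPKM in NTC cells, and Cdkn2a at 30.6 and 31.7 FPKM. Cdkn2b was at 5.11 and 2.71 FPKM, and Glo1, the glyoxalase that removes methylglyoxal, at 52.3 and 59.1 FPKM. Klf4 was at 42.2 and 54.5 FPKM, and Lin28a at 47.6 and 74.3 FPKM.

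Interferon response genes and the small RNA machinery handle foreign and short RNAs. Of 26 interferon response members 2 were higher (7.69%, near the 4.99% of all members) and 7 lower (26.9%, against 10.3%), and 4 were lower among those at 1 FPKM or more in both libraries. Ddx58 (RIG-I), a sensor of RNA ends, was at 3.97 FPKM in untreated and 8.85 FPKM in NTC cells, and Oas1a, another sensor gene, at 8.31 and 17.2 FPKM. On the lower side Ifitm3 was at 240.7 and 69.2 FPKM, and Irf7 was at 1.08 FPKM and listed at 0 in NTC cells, with 17.4 FPKM in MEFs. The interferon genes Ifi27, Isg15 and Irgm1 are also among the genes high in MEFs described above. Of 12 members of the small RNA machinery 1 was higher and 1 lower, 8.33% each and so near the shares over all members: Tnrc6c, at 6.31 and 13.2 FPKM, and Prkra, at 11.97 and 4.38 FPKM. Dicer1 was at 7.496 and 9.44 FPKM, and Ago2 at 7.74 and 11.4 FPKM.

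Of 23 imprinted members 6 were higher and 6 lower, 26.1% each, against 4.99% and 10.3% of all members, and 3 were higher with 1 FPKM required in both libraries. Plagl1, a zinc finger gene of the imprinted network, was at 0.291 FPKM in untreated and 8.91 FPKM in NTC cells, and Peg10 at 14.5 and 45.7 FPKM. H19, a maternally expressed noncoding RNA, was at 47.7 and 8.42 FPKM, and at 518.5 FPKM in shGldc and 291.6 FPKM in iPSC libraries. Phlda2 was at 104.8 and 35.9 FPKM. Germline genes that DNA methylation normally silences were divided as well, with 4 higher (25%, against 4.99% of all members) and 7 lower (43.8%, against 10.3%) of 16 members, of which 2 were lower with 1 FPKM required in both libraries. The X-linked homeobox gene Rhox5 was at 56.1 FPKM in untreated and 155.3 FPKM in NTC cells, and Sycp3, of the synaptonemal complex, at 3.24 and 0.588 FPKM.

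Several of the single largest ratios belonged to genes of none of the lists above, or to genes high in MEFs (Anxa1 and Jund). Ntn1, the guidance cue netrin-1, was at 1.47 FPKM in untreated and 48.3 FPKM in NTC cells, a 32.8-fold difference, with 12.5 FPKM in shGldc cells and 10.5 FPKM in iPSCs. Nkx1-2, a homeobox gene of the caudal epiblast, was at 0.0312 and 6.46 FPKM. Nefm, a neurofilament subunit, was at 0.238 and 13.6 FPKM. AI662270 was at 0.120 and 11.05 FPKM. Anxa1, an annexin that is abundant in MEFs at 408.8 FPKM, was at 7.72 and 0.0236 FPKM, and Spa17 was at 5.52 and 0.115 FPKM. Jund, an AP-1 subunit, was at 1.84 FPKM in untreated and 117.7 FPKM in NTC cells, but 52.6% of its exon sequence is overlapped by another annotated gene, Gm11175, and the level was 0.364 FPKM in iPSCs, 141.7 FPKM in MEFs and 159.9 FPKM in shGldc cells.

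The largest ratio of all belonged to a processed pseudogene. Atp6v0c-ps2 was at 0.0109 FPKM in untreated and 286.1 FPKM in NTC cells, and its parent Atp6v0c, the proton-carrying subunit of the vacuolar ATPase, was at 218.5 and 20.7 FPKM. Added together they were at 218.5 and 306.8 FPKM, a difference of 0.49 on the log2 scale. The pseudogene was at 0.0109 FPKM or less in the 3 libraries of one table and at 286.1 and 349.2 FPKM in the 2 of the other. The reason for showing sequence here is that the copies could hardly be told apart by short reads: 354 of the pseudogene's 465 bases form 1 unbroken run found also in an Atp6v0c transcript, and 90.1% of its 50-nt stretches occur in another gene. The first bases of that run, at chr6:37806197-37806256 (GRCm38, plus strand), are shown.
Atp6v0c-ps2: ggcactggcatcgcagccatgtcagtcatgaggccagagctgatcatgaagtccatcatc
Which copy the fragments came from cannot be told apart within this run.

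Genes that separated the tables in this way were sought with a strict cut that MEFs had to meet too. It cannot show smaller differences between the tables. With every library of one table at least 10-fold below every library of the other and at least 5 FPKM in the higher table, 3 genes were higher in the table with NTC (Atp6v0c-ps2, Nefm and Gm694) and 2 in the table with untreated cells (Atp6v0c and Hspb11). This cut was chosen after the values had been seen. Srp54c, another gene with near-identical copies, was at 9.55 FPKM in untreated cells and listed at 0 in NTC cells. Srp54a, Srp54b and Srp54c together were at 20.8 and 7.81 FPKM.

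The difference also varied along the genome and with transcript composition. The 1055 members on chromosome 11 had a median of 0.17, the highest of 20 chromosomes, and those on chromosome 14 the lowest, -0.21. Chromosome 11 was not high in this pair alone: its median was 0.17 for iPSCs over untreated V6.5 cells and 0.15 for shGldc over NTC cells, comparisons that each share a library with this one. When the members were divided into 5 equal groups by the GC content of their transcripts, the median difference was -0.27 in the group of lowest GC and at most 0.07 in the others. Chromosome 11 lay above the other chromosomes within each GC group, by medians of 0.02 against -0.30 in the lowest and 0.08 against -0.03 in the highest. Along chromosome 11, the bins of 20 Mb had medians from -0.12 to 0.33. Axin2, Notum, Ntn1, AI662270 and Col1a1 lie on this chromosome. The part of chromosome number or of library composition in this was not tested.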

How the data were processed

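RNA-seq values came from 2 deposited tables of 5 libraries, 1 per group. Per the labels and the methods, the authors made libraries from total RNA with the NEBNext Ultra kit, aligned reads with TopHat2 2.1.0, assembled with StringTie 1.3.4d and took FPKM per gene from Ballgown. SAMtools 1.7 is also listed. The methods name mm10, and the labels list both mm9 and mm10. The annotation, strand setting and filters are not given in the sources used here. FPKM is not a count, so no count model was run. The deposited FPKM values were joined by symbol. Members had at least 1 FPKM in either library, and differences were taken as log2(FPKM + 0.1), which understates the change of low genes. A gene was called at 2-fold. No test was run, since each group has 1 library. The 45 gene lists and the members were chosen with earlier results of these data known. One listed set, the mitochondrially encoded genes, has 0 genes in the tables.

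Named genes were the 12 highest and 12 lowest ratios with at least 5 FPKM in the higher library (leaving out predicted, RIKEN, microRNA, snoRNA and pseudogene symbols), the 3 highest and lowest of any kind at 1 FPKM, up to 8 called members of each list with its extremes, genes the study measured in V6.5 cells, and the 5 most abundant genes. Members just short of 2-fold and the table-separating genes were added for context after their values were seen. Not all genes the rule admits are printed, and 1 gene that the rule names is left out and not reported here. GENCODE M21 (GRCm38) gave positions, exon overlap and shared 50-nt stretches for 99.5% of members. RefSeq gave promoters. The ratio script was checked on simulated data. Computations used Python 3.11.15 with pandas 2.3.3 and numpy 2.4.6. Alternatives were other pseudocounts, filters, scalings and gene exclusions.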

Additional observations from a re-analysis of the deposited data

How the results depend on the processing

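No paired analysis was possible because each group is 1 library and the columns carry no replicate numbers. The counts of 601 higher and 1235 lower genes became 342 and 713 with a pseudocount of 1, 1104 and 2466 with no filter, 279 and 511 with at least 5 FPKM in either library, and 325 and 662 with at least 1 FPKM in both. The pseudocount shrinks the ratios of weakly expressed genes, and the filters change how many of them take part. The fibroblast median of -2.05 became -1.41 with a pseudocount of 1, -0.96 with at least 5 FPKM, -0.67 without the genes high in MEFs and -0.38 with 1 FPKM in both, and its 10 lower genes became 4, 2 and 3 under the last 3 settings. The 2-cell-like median of -2.41 became -1.28 with a pseudocount of 1, -1.59 with no filter, -0.90 without genes that share over 20% of their 50-nt stretches and -0.27 with 1 FPKM in both, and its 11 lower genes became 2 and 0 under the last pair. The Wnt target median of 0.61 became 1.37 as a mean, and its 5 higher genes became 3 with 1 FPKM in both. Leaving out genes that share sequence, leaving out genes high in MEFs, requiring 1 FPKM in both libraries and centring within groups of like GC content were chosen after the data were seen. Signs changed for 14 of 44 list medians and 3 of 257 named genes, the genes at most 0.08 from 0. The core pluripotency median of -0.00 lay between 0.01 and 0.12 under rescaling or centring, within GC groups too, and with the exclusion of shared sequence, and the germline median of -0.70 became 0.70 with at least 5 FPKM and 0.10 with 1 FPKM in both. Among 257 named genes a pseudocount of 1 moved 111 values and one of 0.01 moved 50.

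With 1 library per group, no difference can be set against the spread between cultures, and every count above is a description of these libraries. Each NTC value also carries the shRNA vector and a separately made table. No fold was given for genes listed at 0, where a failed estimate and a lack of reads cannot be told apart.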
